A study of Mus musculus with 4 samples.

Results

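The genes described here are 9 genes around the LIN28 proteins and the let-7 microRNAs: Lin28a, Lin28b, Trim71, L1td1, Igf2bp1, Igf2bp2, Igf2bp3, Hmga1 and Hmga2. They were chosen by symbol as the rows of the gene count table with these names, 9 of 55487 rows, and all 9 passed the filter on low counts. Bulk RNA-seq was performed on ES-E14TG2a cells, a mouse embryonic stem cell (mESC) line taken through cardiogenic differentiation, with 2 libraries at day 4 (d4) and 2 at day 2 (d2). The study calls the parental line wild type beside its edited clones, and the labels give no genotype. For d4, embryoid bodies formed over 48 h without serum were taken apart and left to reaggregate for another 40 h in medium that held VEGF at 5 ng/ml, Activin A at 8 ng/ml and BMP4 at 0.5 ng/ml. The d2 libraries stand for the embryoid bodies at the end of the serum-free 48 h, before any of these factors. Day, added factors and reaggregation changed together, so they cannot be told apart. The study used this window to follow the onset of an endothelial program, and its methods give the libraries of a day as biological replicates from independent differentiation experiments.

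LIN28A and LIN28B bind the precursors of let-7 microRNAs and hold back their processing, and LIN28A recruits uridylyl transferases that mark the precursor for decay. Mature let-7, which accumulates as embryonic cells differentiate, pairs through its seed with sites in 3′ untranslated regions (UTRs) and represses these mRNAs, including those of the LIN28 genes themselves. Trim71 (the mouse relative of the worm gene lin-41), the Igf2bp genes and Hmga2 are known let-7 targets, and L1td1 encodes an RNA-binding protein derived from a LINE-1 element that associates with LIN28 in human embryonic stem cells. Not all of the genes encode RNA-binding proteins: HMGA1 and HMGA2 are AT-hook proteins of chromatin that bind DNA, and they belong to the axis as targets.

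The let-7 sequences are shown because they define the sites searched below. The mouse let-7 and miR-98 genes, 11 in the RefSeq table for GRCm38.p6, gave 9 distinct mature 5p sequences with 1 seed in common, GAGGUAG (bases 2 to 8, in capitals). The 4 below differ from each other only outside the seed.
mmu-let-7a-5p: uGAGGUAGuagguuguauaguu
mmu-let-7d-5p: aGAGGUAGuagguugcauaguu
mmu-let-7g-5p: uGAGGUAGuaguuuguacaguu
mmu-miR-98-5p: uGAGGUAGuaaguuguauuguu
The letters that pair with this seed, CTACCTC in DNA, were counted on the sense strand of the longest annotated 3′ UTR of each gene (GENCODE M21, GRCm38). No other motif was searched.

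The 3′ UTRs of 8 of the 9 genes held the seed match. Hmga2, Lin28b, Trim71 and Igf2bp1 held 4 matches each in UTRs of 3014, 4445, 5512 and 6337 bases, Lin28a held 2 in 2775 bases, and Hmga1, Igf2bp2 and Igf2bp3 held 1 each in 1183, 1784 and 2119 bases. L1td1, with a UTR of 364 bases, held 0. Of the 21 matches, 13, in 7 genes, were followed by an A, the base that extends a let-7 site beyond the seed. By comparison, 2129 of 21160 annotated 3′ UTRs (10.1%) held at least 1 match, 0.175% held at least 3, and 11.7% held at least 1 among UTRs within the members' range of lengths. A match followed by an A was found in 3.54% of all UTRs. Several of these genes are in the list because they are known let-7 targets, so the matches are a description of the list.

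The sites below are shown for the members with a seed match that changed (Lin28a and Hmga2), for their paralogs, and for Trim71, whose 4 matches are all followed by an A, with the 7 matched letters in capitals. All lie in 3′ UTRs, and the coordinates of the capitals are those of GRCm38.
Lin28a, first match (chromosome 4, 134005190 to 134005196, minus strand): cacagccuguugaaCUACCUCa
Lin28a, second match (chromosome 4, 134004552 to 134004558, minus strand): agaucgccacaaacCUACCUCa
Lin28b, first match (chromosome 10, 45381023 to 45381029, minus strand): cccgggcgggaaguCUACCUCa
Hmga2, first match (chromosome 10, 120364225 to 120364231, minus strand): ccgacauucaauuuCUACCUCa
Hmga2, last match (chromosome 10, 120361692 to 120361698, minus strand): aucaaaacacacuaCUACCUCu
Hmga1, its match (chromosome 17, 27563292 to 27563298, plus strand): ccucuguucacaaaCUACCUCu
Trim71, first match (chromosome 9, 114512473 to 114512479, minus strand): acauugccuaagucCUACCUCa
Trim71, second match (chromosome 9, 114512377 to 114512383, minus strand): gugauaauuucuauCUACCUCa
The first sites of Lin28b and Hmga2 begin 36 and 58 bases past the stop codon, and the first pair in Trim71 begins at 166 and 262. A match of letters does not show that a site is bound in these cells.

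**Figure D1:**
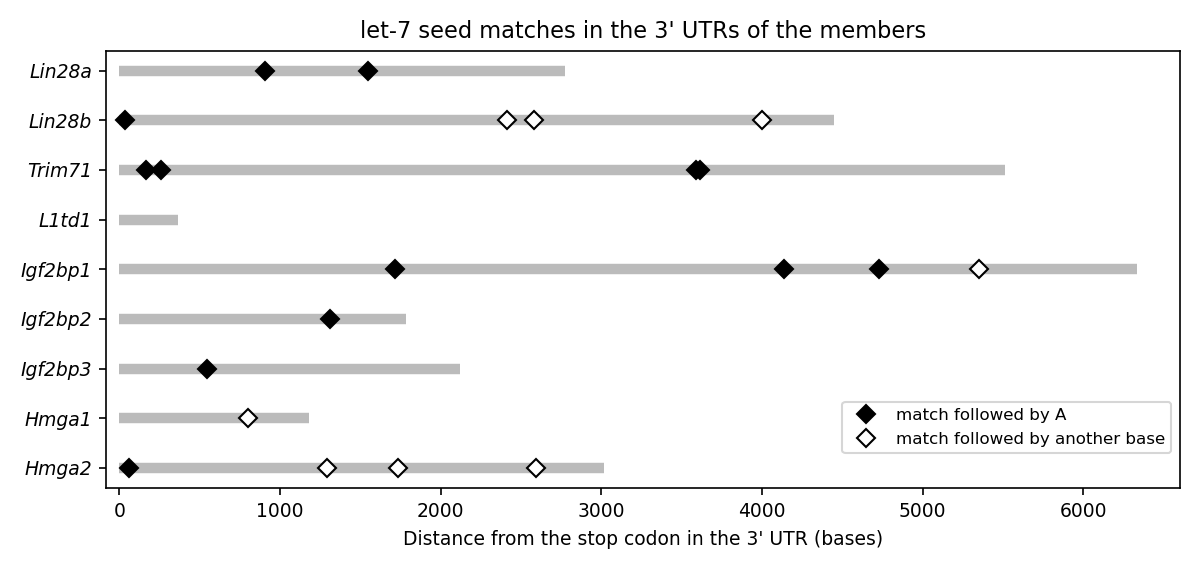
Positions of let-7 seed matches along the longest annotated 3′ UTR of each gene; the x axis is the distance from the stop codon in bases, grey bars are UTRs, and filled and open diamonds are matches followed by A and by another base. Hmga2, Lin28b, Trim71 and Igf2bp1 have 4 matches each, and L1td1, with 364 bases, has 0.

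Total counts were 11397439 and 16851485 in the d4 libraries and 12068584 and 14038796 in the d2 libraries, and 14932 genes were tested. The test was edgeR's quasi-likelihood test (two-sided, no covariate), and a call needed a Benjamini-Hochberg adjusted p under 0.01 over all genes tested. Levels are in CPM, reads of a gene scaled to a common library size, after TMM scaling, and SD is over the 2 libraries of a day. Together the 9 genes made up 0.225% and 0.219% of a d4 library and 0.295% and 0.289% of a d2 library. The marker counts that follow are to be read beside all genes tested, of which 12.9% were called higher and 11.3% lower. The label calls the cells embryonic stem cells, and at d4 the pluripotency markers had largely gone in sum. Of the 9, 7 were lower and 2 gave no call, and in 1 the days overlapped. Their summed level was 35.4 and 36.2 CPM at d4 against 1402 and 1081 CPM at d2, and Utf1 was at 0 in both d4 libraries. All 4 markers of primed epiblast were also lower (224 and 203 CPM in sum at d4, 4546 and 3892 CPM at d2). All 6 tested of 7 mesoderm markers were higher (847 and 793 CPM at d4, 12.2 and 17.3 CPM at d2, with Hand1 at 0 in both d2 libraries), as were 5 of 6 endothelial markers (1087 and 822 CPM at d4, 23.2 and 18.98 CPM at d2) and 5 of 5 of primitive blood (363 and 239 CPM at d4, 2.21 and 1.97 CPM at d2). Smaller sums were found for endoderm (11.3 and 5.47 CPM at d4, 0.654 and 0.835 CPM at d2, with Sox17, Afp and Ttr at 0 at d2) and trophoblast (17.4 and 16.1 CPM at d4, 0.0818 and 0.228 CPM at d2, with Tpbpa at 0 at d4 and Elf5 at 0 at d2), where the 1 and 2 genes tested were higher. In neuroectoderm 2 of 2 tested were lower (0.339 and 0.471 CPM at d4, 5.64 and 5.32 CPM at d2, with Neurog2 at 0 at d4). Of 4 germ cell genes tested, 2 were lower (4.57 and 3.88 CPM in sum at d4, 23.9 and 30.7 CPM at d2, with Dppa3 at 0 at d4). Another 1 of the 4 went the other way without a call, with both d4 libraries above both d2 libraries (log2 fold change 1.23). The part of these shifts in the changes below was not tested, and in bulk samples fewer cells of a type and less RNA per cell cannot be told apart.

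Of the 9 genes, Hmga2 was higher at d4, L1td1 and Lin28a were lower, and the other 6 gave no call. Over all genes tested, 12.9% were called higher and 11.3% lower, and 1 and 2 of 9 genes are too few to set apart from these shares. An edgeR unadjusted p under 0.05 was found in 7044 of the 14932 genes tested and in 5 of the 9. DESeq2 called 2182 genes higher and 1895 lower, and limma voom 1892 and 1661. The counts in the lists below are to be read beside these. The size of the changes ran from -7.42 to 4.42 on the log2 scale, with a median of -0.0035 beside -0.03 for all genes tested. In 4 genes (Hmga2 and the 3 Igf2bp genes) both d4 libraries lay above both d2 libraries, which was true of 35.8% of all genes tested. In 3 (Lin28a, L1td1 and Hmga1) both lay below, as in 35.2% of all genes, and in Lin28b and Trim71 the days overlapped.

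**Figure D2:**
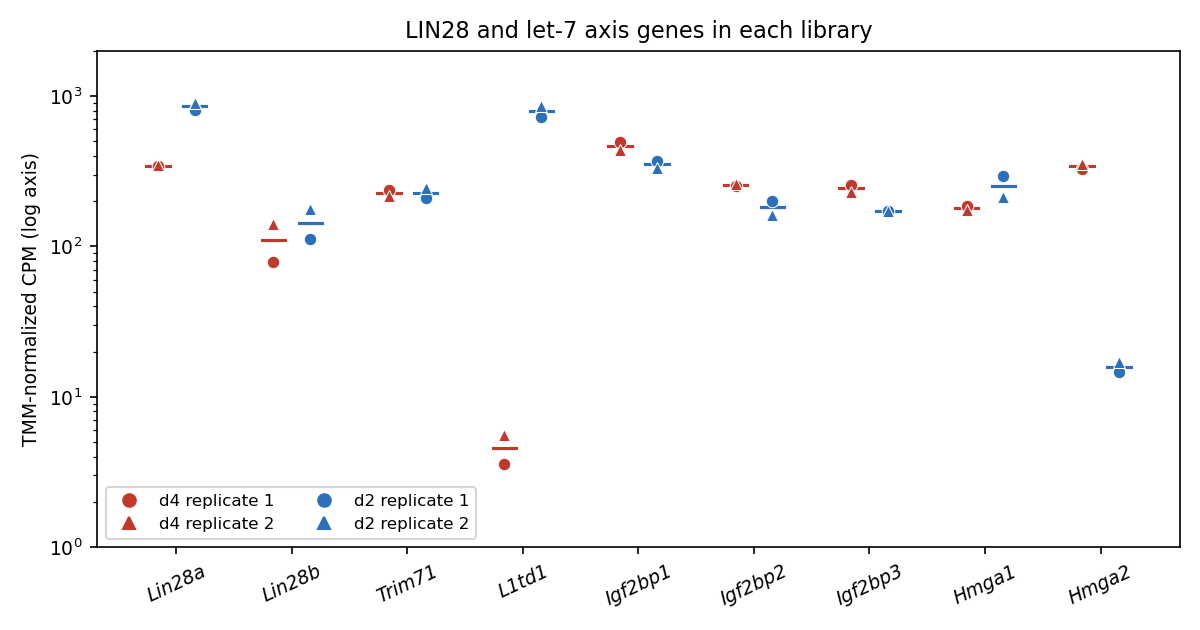
Level of the 9 genes in each library in TMM-normalized CPM on a log axis; circles and triangles are replicates 1 and 2, red is d4 and blue d2, and lines are the means of a day. Hmga2 (328 and 355 CPM at d4, 14.6 and 17.2 CPM at d2) and L1td1 (3.55 and 5.59 CPM at d4, 729 and 859 CPM at d2) lie far apart between days, while Lin28b and Trim71 overlap.

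Lin28a, which encodes the LIN28 protein typical of pluripotent cells, was lower at d4 but remained an abundant mRNA. Lin28a (ENSMUSG00000050966.9, chromosome 4 from 134003330 to 134018841 of GRCm38, minus strand) had 341 and 348 CPM in the d4 libraries, against 812 and 905 CPM in the d2 libraries. Both d4 values were below both d2 values, and the d4 libraries lay within a few CPM of each other. The means were 345 ± 5.23 CPM at d4 and 859 ± 65.5 CPM at d2 (SD, n = 2 each), a log2 fold change of -1.32 (standard error 0.18, edgeR adjusted p = 0.00158), or 2.49-fold lower (95% interval 1.84 to 3.36). Per kilobase of exon it was above 96.9% of genes tested at d4, with 86.3 CPM per kb, and above 98.7% at d2, with 215 CPM per kb.

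Lin28b, the paralog, gave no call. Lin28b (ENSMUSG00000063804.8, chromosome 10 from 45376620 to 45486395, minus strand) had 78.5 and 141 CPM in the d4 libraries, against 112 and 176 CPM in the d2 libraries. The days overlapped, and within each day replicate 2 was the higher, by 1.80-fold at d4 and 1.57-fold at d2. Its log2 fold change was -0.39 (standard error 0.34, edgeR adjusted p = 0.409), with a 95% interval of -1.20 to 0.42. The transcripts of Lin28b have a GC content of 42.5%, lower than that of most genes tested (percentile 9.09), and across all genes the difference of replicate 2 from replicate 1 fell with GC content (Spearman rho -0.47 at d4 and -0.69 at d2, a description over genes, which are not independent). With a trend on GC content and length removed, the log2 fold change of Lin28b was -0.16 (edgeR adjusted p = 0.313), and with single libraries left out edgeR gave -0.88 (without d4 replicate 2) to -0.03 (without d4 replicate 1), with -0.66 without d2 replicate 1 and -0.06 without d2 replicate 2.

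As a share of the pair per kilobase, Lin28b took 9.21% and 15.2% at d4, against 5.73% and 7.91% at d2. Both d4 shares were above both d2 shares, but the d4 libraries differed more from each other than the means of the days did. In counts the shares were 18.7% (Wilson 95% interval 17.6 to 19.8) and 28.9% (27.9 to 29.9) at d4, and 12.1% (11.5 to 12.7) and 16.3% (15.7 to 16.9) at d2, intervals that cover counting error only. The difference per kilobase was 5.37 percentage points (exact permutation test, two-sided, p = 0.333, the smallest that 2 libraries against 2 can give), and it was 2.39 points without d4 replicate 2 and 8.36 points without d4 replicate 1. Lin28a was thus the main LIN28 mRNA on both days by either measure.

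The genes most like the pair over the 4 libraries were found by Euclidean distance on log2(CPM + 0.5). For Lin28a they were Hmgb2, a chromatin protein of the HMG-box family (distance 0.49), Txnrd1, thioredoxin reductase (0.61), and Ddx21, a nucleolar RNA helicase (0.61). Hmgb2 had 351 and 379 CPM at d4, against 672 and 692 CPM at d2, and was lower by the test. Txnrd1 and Ddx21 were also at lower values in both d4 libraries, but they did not pass (edgeR adjusted p = 0.0143 and 0.0159). For Lin28b they were Dld, a subunit of the mitochondrial pyruvate dehydrogenase complex (0.22), Ccdc50 (0.22) and Ythdc1, a nuclear reader of m6A (0.27). All 3 had the Lin28b pattern of a higher replicate 2 on both days, Dld with 80.9 and 162 CPM at d4 and 116 and 183 CPM at d2. For both Lin28 genes the shared patterns follow from how the neighbours were picked.

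Trim71, an RNA-binding repressor of the TRIM-NHL family, stood at nearly the same mean level on both days. Trim71 (ENSMUSG00000079259.2, chromosome 9 from 114507133 to 114564369, minus strand) had 236 and 216 CPM in the d4 libraries, against 209 and 245 CPM in the d2 libraries. The d4 values lay between the d2 values. Its log2 fold change was -0.0035 (standard error 0.19, edgeR adjusted p = 0.991), with a 95% interval of -0.46 to 0.46, so a change beyond about 1.38-fold in either direction lies outside the interval. With a trend on GC content and length removed it was -0.29 (adjusted p = 0.230).

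L1td1 had the largest change of the 9 genes and nearly vanished at d4. L1td1 (ENSMUSG00000087166.9, chromosome 4 from 98726734 to 98738480, plus strand) had 42 and 95 counts in the d4 libraries, against 8910 and 11313 counts in the d2 libraries. In CPM the values were 3.55 and 5.59 at d4 and 729 and 859 at d2, with no overlap. Its log2 fold change was -7.42 (standard error 0.33, edgeR adjusted p = 4.1e-05), or 172-fold lower (95% interval 100.2 to 294), and it ranked 127 of 14932 by size of fall. Per kilobase it was the most abundant of the 9 at d2, with 250.1 CPM per kb, above 99.0% of genes tested. At d4 it was the least abundant, with 1.44 CPM per kb. It is also the member without a let-7 seed match.

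The Igf2bp genes, whose proteins bind mRNAs through KH and RRM domains and hold them stable, were at slightly higher values at d4 without passing the test. Igf2bp1 (ENSMUSG00000013415.9, chromosome 11 from 95957163 to 96005940, minus strand) had 494 and 437 CPM in the d4 libraries, against 367 and 334 CPM in the d2 libraries. Igf2bp2 (ENSMUSG00000033581.17, chromosome 16 from 22059009 to 22163299, minus strand) had 252 and 259 CPM at d4, against 201 and 162 CPM at d2. Igf2bp3 (ENSMUSG00000029814.10, chromosome 6 from 49085223 to 49214957, minus strand) had 255 and 232 CPM at d4, against 173 and 171 CPM at d2. For each of the 3 genes the days did not overlap. The log2 fold changes were 0.41 for Igf2bp1 (standard error 0.19, adjusted p = 0.131), 0.49 for Igf2bp2 (standard error 0.20, adjusted p = 0.0966) and 0.50 for Igf2bp3 (standard error 0.18, adjusted p = 0.0735). Their 95% intervals were -0.04 to 0.85, 0.02 to 0.97 and 0.06 to 0.94, so the change of each is below 2-fold by these intervals. Both ends were positive for Igf2bp2 and Igf2bp3 (edgeR unadjusted p = 0.0443 and 0.0312). These intervals are not adjusted for the number of genes tested. With a trend on GC content and length removed, the log2 fold changes were 0.11, 0.31 and 0.33 for Igf2bp1, Igf2bp2 and Igf2bp3. Without d2 replicate 2 that of Igf2bp2 was 0.30.

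The make-up of the family was similar in the 4 libraries. Per kilobase, Igf2bp1 took 43.8% and 41.6% of the family at d4, against 43.9% and 44.6% at d2. The shares of Igf2bp2 were 29.3% and 32.2% at d4 and 31.5% and 28.3% at d2, and those of Igf2bp3 were 26.8% and 26.2% at d4 and 24.6% and 27.1% at d2. Igf2bp1 was the main member in every library, while Igf2bp2 and Igf2bp3 stood close to each other. The differences between days were -1.56, 0.86 and 0.70 percentage points for Igf2bp1, Igf2bp2 and Igf2bp3 (exact permutation tests, two-sided, p = 0.333, 0.667 and 1). The sign of 2 of them rested on single libraries: Igf2bp2 gave -0.59 without d4 replicate 2 and -0.74 without d2 replicate 2, and Igf2bp3 gave -0.55 without d2 replicate 1. Igf2bp1 ran from -2.69 without d4 replicate 1 to -0.43 without d4 replicate 2.

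Hmga2, the AT-hook gene with 4 seed matches, changed in the direction opposite to Lin28a. Hmga2 (ENSMUSG00000056758.14, chromosome 10 from 120361275 to 120476469, minus strand) had 3870 and 6037 counts in the d4 libraries, against 179 and 226 counts in the d2 libraries. In CPM the values were 328 and 355 at d4 and 14.6 and 17.2 at d2. The d4 libraries were close to each other and far above the d2 libraries. Its log2 fold change was 4.42 (standard error 0.22, edgeR adjusted p = 5.1e-05), or 21.5-fold higher (95% interval 14.8 to 31.1). Per kilobase it had 50.4 CPM per kb at d4, above 93.8% of genes tested, and 2.35 CPM per kb at d2, above 37.6%.

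Hmga1, its paralog, was at lower values at d4 without a call. Hmga1 (ENSMUSG00000046711.16, chromosome 17 from 27556497 to 27563674, plus strand) had 186 and 175 CPM in the d4 libraries, against 294 and 212 CPM in the d2 libraries. The days did not overlap, but the d2 libraries differed more from each other than the second d2 library did from d4. Its log2 fold change was -0.49 (standard error 0.22, edgeR adjusted p = 0.130), and it was -0.23 without d2 replicate 1 and -0.75 without d2 replicate 2. Hmga1b, a copy on chromosome 11 (120762794 to 120764419), had 110 and 108 CPM at d4 and 189 and 127 CPM at d2 (log2 fold change -0.54, standard error 0.24, adjusted p = 0.122). Reads that map to both were dropped in counting, so the levels of Hmga1 and Hmga1b are uncertain. The log2 ratio of Hmga1 to Hmga1b was 0.76 and 0.71 at d4, against 0.64 and 0.74 at d2, so the copies kept about the same ratio in the 4 libraries.

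The balance of the Hmga pair shifted between days. Per kilobase, Hmga2 took 35.6% and 38.9% of the pair at d4, against 1.54% and 2.47% at d2, a difference of 35.2 percentage points (exact permutation test, two-sided, p = 0.333, the smallest possible). In counts it took 63.8% (Wilson 95% interval 62.6 to 65.0) and 67.0% (66.0 to 67.9) at d4, and 4.75% (4.11 to 5.47) and 7.48% (6.59 to 8.47) at d2. Hmga2 thus had more counts than Hmga1 at d4, but not more per kilobase, since its exons are longer. Reads that map to both Hmga1 and Hmga1b were dropped, so the Hmga1 counts and these shares are uncertain.

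**Figure D3:**
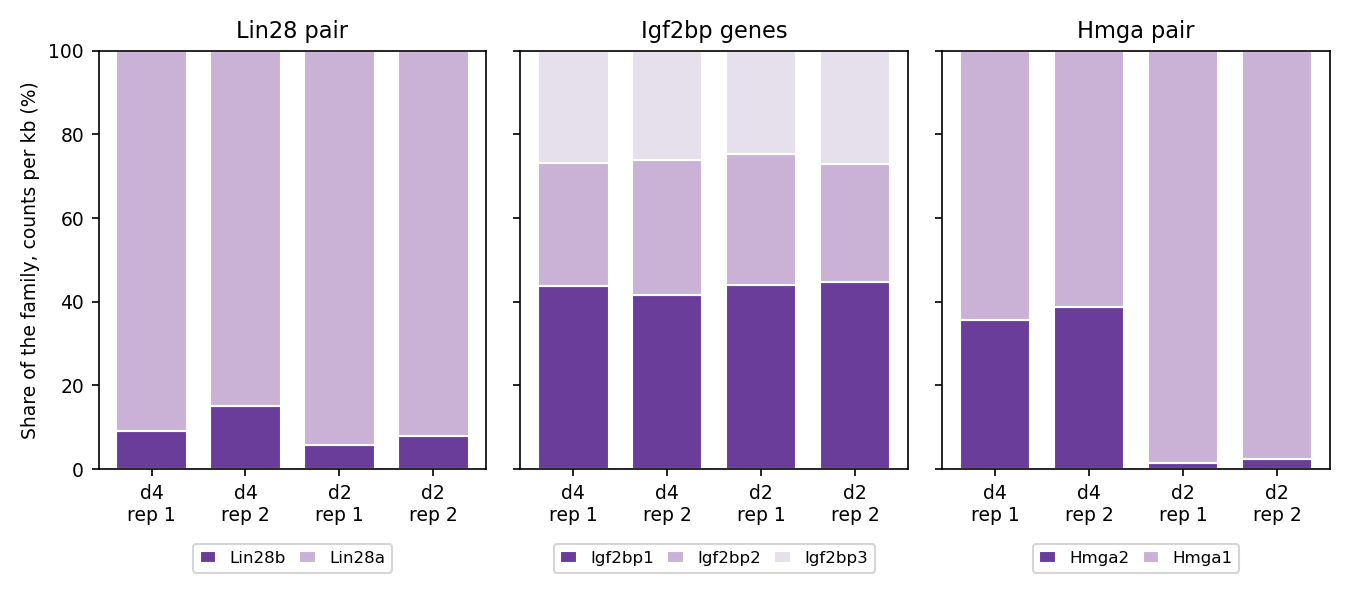
Share of each gene in its family in percent of length-scaled counts, in each of the 4 libraries (d4 on the left of each panel, d2 on the right). Hmga2 takes 35.6% and 38.9% of the Hmga pair at d4 and 1.54% and 2.47% at d2, while the shares of the Igf2bp genes stay within a few percentage points. Reads that map to both Hmga1 and its copy Hmga1b were dropped, so the Hmga shares are uncertain.

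Ordered by CPM per kb, the 9 genes changed places between days. At d4 the order was Lin28a (86.3), Hmga1 (85.0), Hmga2 (50.4), Igf2bp1 (48.0), Igf2bp2 (34.5), Igf2bp3 (29.8), Trim71 (24.3), Lin28b (12.1) and L1td1 (1.44). The libraries of Lin28a and Hmga1 overlapped there, as did those of Hmga2 and Igf2bp1, and the other neighbours did not. At d2 the order was L1td1 (250.1), Lin28a (215), Hmga1 (119), Igf2bp1 (36.2), Igf2bp2 (24.6), Trim71 (24.3), Igf2bp3 (21.1), Lin28b (15.9) and Hmga2 (2.35). Igf2bp2 and Trim71 overlapped at d2, and L1td1 and Lin28a did not, although 230 and 226 CPM per kb in their closest libraries are near each other. Hmga2 was last at d2 and L1td1 was last at d4.

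**Figure D4:**
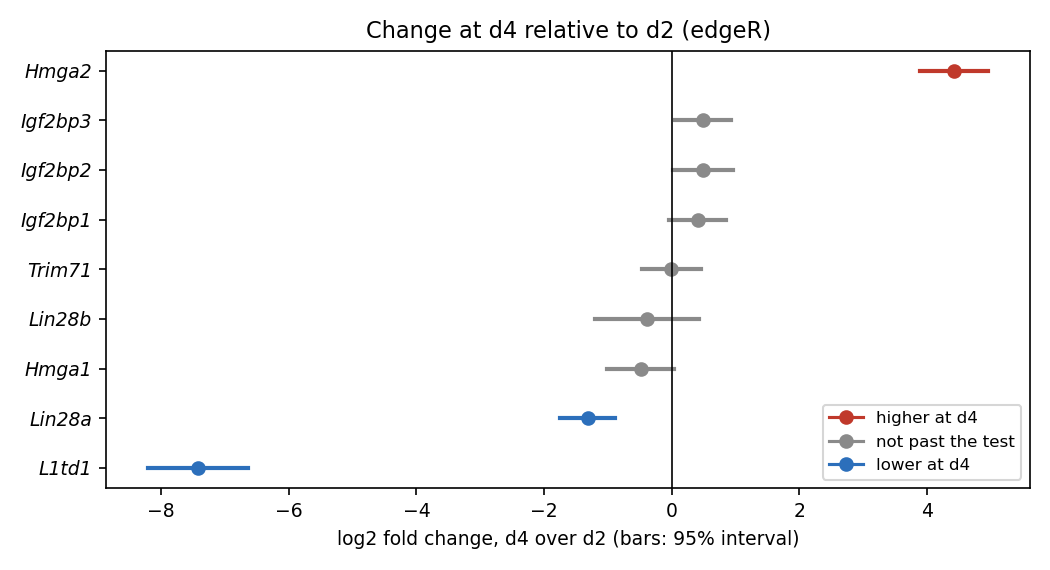
Log2 fold change of each gene, d4 over d2, by edgeR's quasi-likelihood test with 95% intervals (bars); red is higher at d4, blue lower, grey not past adjusted p under 0.01. Hmga2 lies at 4.42, Lin28a at -1.32 and L1td1 at -7.42, and the other 6 lie between -0.49 and 0.50.

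The calls of Hmga2, L1td1 and Lin28a held in each of the 11 other settings that used the 4 libraries. Those settings include adjusted p under 0.05 and log2 fold change of at least 1 on the main fit, which these calls could not fail. The calls needed both d2 libraries in edgeR. Without d2 replicate 1 the adjusted p was 0.0264 for Lin28a and 0.0181 for both L1td1 and Hmga2, and without d2 replicate 2 it was 0.0259 and 0.0172. No gene of the whole table passed in either fit, in which the lone d2 library is assumed to vary like the d4 libraries (6343 and 6012 genes had an unadjusted p under 0.05, and limma voom also called 0 genes). DESeq2, which called 1049 genes higher and 730 lower in the first case and 985 and 722 in the second, still called Hmga2 and L1td1, but not Lin28a (adjusted p = 0.0116 and 0.0210).

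The let-7 microRNAs themselves were not measured. The study's methods describe strand-specific RNA-seq libraries from total RNA and no small RNA libraries. Of the 12 let-7 and miR-98 hairpin genes in the table, 11 had 0 counts in the 4 libraries, which allows up to 0.177 to 0.254 CPM per library (3 counts, counting error only). Mirlet7e had 2 and 2 counts at d4 and 0 and 0 at d2, at or under that floor. Of the host transcripts, Mir99ahg had 0 and 0 counts at d4 and 0 and 1 at d2. Wdr82, the host of a let-7g hairpin, had a log2 fold change of -0.42 (edgeR adjusted p = 0.132) and Huwe1, the host of miR-98, of -0.50 (adjusted p = 0.0927), so 0 of the 2 tested hosts passed in edgeR (1 lower at an unadjusted p under 0.05, 0 by DESeq2 and limma voom). These counts say nothing of the level of mature let-7.

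The machinery that makes and destroys let-7 was expressed on both days (median log2 fold change -0.15, beside -0.03 for all genes). At an unadjusted p under 0.05, 2 of 18 genes were higher and 1 lower, beside 7044 of all 14932 genes tested. DESeq2 called 1 (Tut7) higher and limma voom 0. In edgeR 0 of 18 genes passed the test in either direction. Nearest to it were Tut7, a uridylyl transferase that adds the tail to let-7 precursors held by LIN28A, with 83.0 and 91.0 CPM at d4 against 51.7 and 51.9 CPM at d2 (log2 fold change 0.75, adjusted p = 0.0203), and Dis3l2, the exonuclease that degrades the tailed precursor, with 30.7 and 29.5 CPM at d4 against 20.3 and 19.2 CPM at d2 (0.61, adjusted p = 0.0551). In both genes the d4 libraries were above the d2 libraries. Dgcr8, the partner of Drosha in the nucleus, had a log2 fold change of -0.47 (adjusted p = 0.105), and Ago4 of 0.86 at low levels (adjusted p = 0.120).

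Among 20 other genes listed as let-7 targets from textbook knowledge, much of it from human cells, 5 were higher and 1 was lower (14 without a call), with a median of 0.17, beside 12.9% higher and 11.3% lower over all genes. At an unadjusted p under 0.05, 8 were higher and 5 lower, beside 7044 of all 14932 genes tested. DESeq2 called 5 higher and 2 lower, and limma voom called 5 higher and 1 lower. Ccnd2, a D-type cyclin, had 204 and 226 CPM at d4 against 8.67 and 8.88 CPM at d2 (log2 fold change 4.61, standard error 0.22, edgeR adjusted p = 4.5e-05). Arid3a, a DNA-binding factor, averaged 111 ± 0.684 CPM at d4 and 13.4 ± 2.04 CPM at d2 (SD, n = 2 each; log2 fold change 3.04, standard error 0.22, adjusted p = 1.3e-04), and Myc had 124 and 79.1 CPM at d4 against 11.1 and 8.43 CPM at d2 (3.37, standard error 0.31, adjusted p = 2.8e-04). In these 3 genes, as in Hmga2, the d4 libraries were several-fold above the d2 libraries. Insr, the insulin receptor (1.22), and Plagl2, a zinc finger factor (1.09), were the others that were higher. Nr6a1, the nuclear receptor GCNF, was the one that fell, with 95.8 and 91.3 CPM at d4 against 309 and 335 CPM at d2 (-1.78, standard error 0.19, adjusted p = 5.1e-04). Nr6a1 had 8 seed matches in its 3′ UTR, while Ccnd2 and Myc had 0, and 13 of the 20 genes had at least 1.

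Over the whole table, tested genes with a seed match moved in both directions. Of 1598 with at least 1 match, 256 were higher and 180 lower (median log2 fold change 0.09), and of 11545 with a UTR and 0 matches, 1571 were higher and 1365 lower (median -0.03). The median UTR was 2477 bases in the genes with a match and 1264 bases in those without, and the part of length in this difference was not tested. At 2 or more matches, 36 of 220 were higher and 25 lower, with a median of 0.23. Of the 12 tested genes with 4 or more, 4 are Hmga2, Lin28b, Trim71 and Igf2bp1. Hmga2 and Ptafr were the 2 of these 12 that were higher, and Nr6a1 and Mcf2l the 2 that were lower; Ptafr and Mcf2l were picked out after their values were seen.

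Genes that act with the IGF2BP proteins were also examined. Of 15 genes of the m6A machinery, whose mark IGF2BP proteins can read, 0 passed edgeR's test in either direction, with a median of -0.27 (1 higher and 1 lower at an unadjusted p under 0.05, 0 by DESeq2 and limma voom). The nearest were Alkbh5, a demethylase, with 167 and 145 CPM at d4 against 97.4 and 100.5 CPM at d2 (log2 fold change 0.66, adjusted p = 0.0339), Rbm15, an adaptor of the writer complex (-0.58, adjusted p = 0.0942), Mettl3, its catalytic subunit (-0.44, adjusted p = 0.116), and Ythdf2, a reader (-0.44, adjusted p = 0.116). Of 7 genes for proteins found with IGF2BP1 on RNA, 0 passed in edgeR, with a median of -0.49 (1 lower at an unadjusted p under 0.05, 0 by DESeq2 and limma voom). They were Dhx9 (-0.61), Hnrnpu (-0.55), Matr3 (-0.50), Syncrip (-0.49), Pabpc1 (-0.10), Ybx1 (0.04) and Elavl1 (0.05), and in 5 of the 7 the days overlapped.

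Of 5 RNAs listed as bound by IGF2BP proteins, 4 were higher and 0 lower in edgeR, with a median of 3.37. Over all genes tested, 12.9% were higher and 11.3% lower. At an unadjusted p under 0.05, and by DESeq2 and limma voom, the list gave the same counts. Myc is also in the list of let-7 targets, so the 2 lists are not separate. The imprinted RNA H19 had 47.1 and 40.0 CPM at d4 against 0.491 and 0.456 CPM at d2 (log2 fold change 6.50, standard error 0.31, edgeR adjusted p = 4.5e-05). Its neighbour Igf2, the growth factor for which the family is named, had 744 and 796 counts at d4 against 3 and 1 counts at d2. Both RNAs were close to absent at d2. Cd44, a cell surface receptor, had 47.2 and 47.3 CPM at d4 against 6.30 and 7.21 CPM at d2 (2.80, standard error 0.22), Myc is given above, and Actb, a cytoskeletal actin, had 1462 and 1380 CPM at d4 against 1308 and 1106 CPM at d2 without passing (0.24, adjusted p = 0.359).

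Of 5 RNAs listed as repressed by TRIM71, 4 were tested, 0 were higher and 1 was lower in edgeR, with a median of -0.10. At an unadjusted p under 0.05, and by DESeq2 and limma voom, the counts were the same. Egr1, an immediate early factor, had 3.72 and 2.00 CPM at d4 against 11.6 and 12.1 CPM at d2 (log2 fold change -2.07, standard error 0.35, edgeR adjusted p = 0.00385). Cdkn1a, which encodes the cell cycle inhibitor p21, had 38.4 and 26.8 CPM at d4 against 33.4 and 30.5 CPM at d2 (0.03), with overlap. E2f7 (-0.23) and Mbnl1 (1.40, with 6.26 and 36.0 CPM at d4 and 4.99 and 11.1 CPM at d2) also overlapped, and Hoxa5 had 0 counts in the 4 libraries.

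Trim2 and Ybx2 had the largest falls in a list of 16 genes around the members. The list holds cold shock genes, which share that domain with the LIN28 proteins, TRIM-NHL genes, which share theirs with TRIM71, and Hmgb and Hmgn genes, which share with the HMGA proteins the high mobility group name and not the AT-hook. Of the 16, 0 were higher and 3 were lower (13 without a call) in edgeR, with a median of -0.37. At an unadjusted p under 0.05, 4 were higher and 6 lower, beside 7044 of all 14932 genes tested. DESeq2 called 1 higher (Trim32) and 3 lower, and limma voom called 0 higher and 3 lower. Trim2, a TRIM-NHL relative of Trim71, had 3.64 and 5.82 CPM at d4 against 46.5 and 58.8 CPM at d2 (log2 fold change -3.46, standard error 0.31, edgeR adjusted p = 2.5e-04). Ybx2, a cold shock protein of germ cells, had 2.03 and 2.18 CPM at d4 against 18.3 and 15.0 CPM at d2 (-2.97, standard error 0.28), and Hmgb2 is given above (-0.90). Trim32, another TRIM-NHL relative, had 72.4 and 55.7 CPM at d4 against 33.4 and 34.2 CPM at d2, without passing (0.92, adjusted p = 0.0156).

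**Figure D5:**
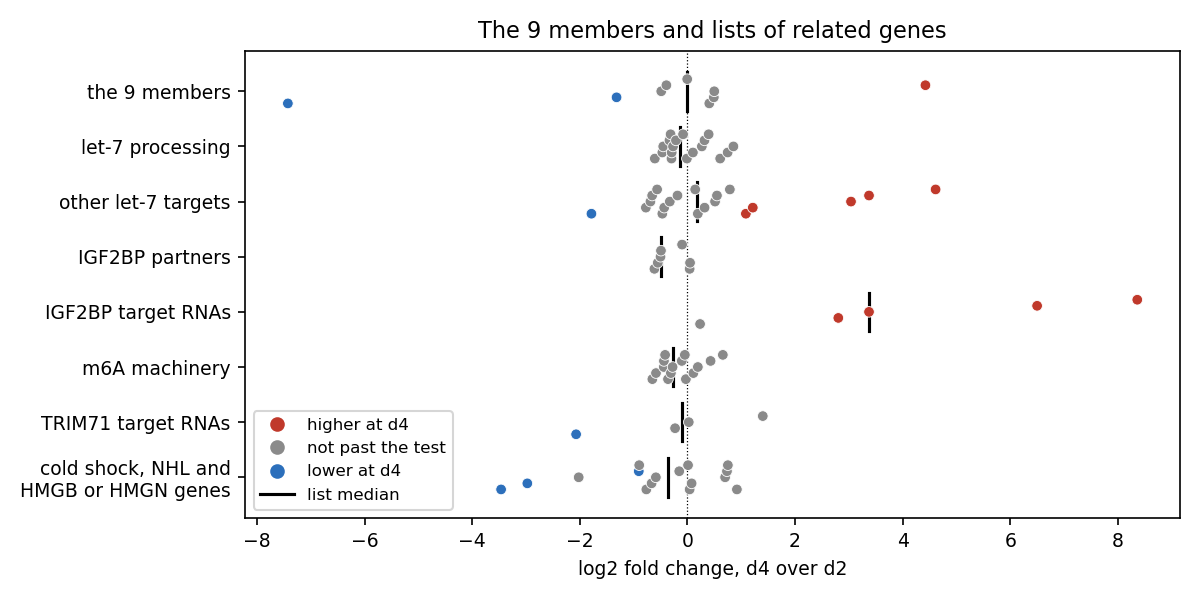
Log2 fold change, d4 over d2, of the 9 members and of 7 lists of related genes; each point is a gene tested, red is higher at d4, blue lower, grey not past the test, and black lines are list medians. The let-7 processing, m6A and IGF2BP partner lists hold 0 calls, the other let-7 targets hold 5 higher and 1 lower, and 4 of 5 IGF2BP target RNAs are higher.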

How the data were processed

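Libraries were strand-specific, in read pairs of 75 bp. The labels name a forward-strand count table, and the deposited one is named for the reverse strand. The study's methods also set featureCounts to reverse-strand counting. In the deposited table Lin28a held 4030 and 5923 counts at d4 and 9934 and 11918 at d2. Gm13061, opposite to Lin28a, held 1 and 4 at d4 and 5 and 2 at d2, so the counts there lie on the strand of Lin28a. According to the study's methods, STAR v2.6.0a placed reads on mm10/GRCm38 after trimming by cutadapt v2.9, and featureCounts (Rsubread v2.0.1) assigned them to genes, dropping multi-mapping reads. The annotation is named both as GENCODE M10 and Ensembl release 102. The authors deposited whole-number counts, unnormalized. Of 55487 IDs, 55227 were found in GENCODE M21, the source of symbols, exon lengths and UTRs. Each of the 4 columns matched 1 sample by name.

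A gene was tested if the summed counts of either day exceeded 0.5 CPM by a one-sided proportion test at adjusted p under 0.05, which 14932 genes did. Fits used R 4.3.3, edgeR 4.0.16 (TMM, glmQLFit, glmQLFTest), limma 3.58.1 and DESeq2 1.42.0. Only the edgeR fit was tested on simulated data. Every adjusted p is edgeR's unless another tool is named. The floor for genes at 0 was 3 counts per library.

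The members and lists were chosen with earlier results of these data known. Named genes are the members, their copies, up to 4 genes per list by adjusted p (every gene of lists of up to 12), the 3 nearest to each Lin28 gene, and markers at 0; Insr and Plagl2 were added after their values were seen. On the opposite strand, Malsu1 overlaps Igf2bp3 (205 and 301 counts at d4, 287 and 375 at d2) and AI413582 overlaps Hmga1 (55 and 45 counts at d4, 16 and 22 at d2). Chromatin data of the study were not used here.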

Additional observations from a re-analysis of the deposited data

How the results depend on the processing

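With the 4 libraries, each of 11 other settings called Hmga2 higher and L1td1 and Lin28a lower and none of the other 6. Adjusted p under 0.05 and log2 fold change of at least 1 are among them. They reuse the main fit, so the calls could not fail there. Leaving out a library, including fits by DESeq2 and limma voom that were chosen after seeing the data, gave 0 to 1 higher and 0 to 2 lower calls among the 9 genes, and 0 to 2269 higher and 0 to 2475 lower calls over all genes. DESeq2 called 1049 higher and 730 lower without d2 replicate 1, 985 and 722 without d2 replicate 2, and 1248 and 1268 higher without d4 replicate 1 and 2. Trim71, at -0.0035, was 0.0085 with no filter, -0.29 with the GC and length trend removed (-0.27 with the block added) and -0.12 to 0.10 with a library left out (0.066 without d2 replicate 2 and 0.059 without d4 replicate 2 in edgeR, 0.10, 0.066, 0.047 and 0.063 in DESeq2 and limma voom). Lin28b ran from -0.89 to 0.0089 with a library left out, reversed only without d4 replicate 1 in DESeq2 (0.0072) and limma voom (0.0089). Causes of these shifts were not tested. Calls over all genes were 2901 higher and 2873 lower with no filter, 2991 and 2679 at adjusted p under 0.05, and 2664 and 2634 with a trend on GC content and length removed. Hmga2's share by counts differed by 59.3 percentage points, since its exons are longer.

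The replicate numbers are shared between days, but the labels do not say that a number marks 1 experiment. The study's methods name 2 independent differentiation experiments as the source of the replicates, without saying which libraries share an experiment. The differences of replicate 2 from replicate 1 correlated between days (Pearson r = 0.48 and Spearman rho = 0.39 over genes, which are not independent). With the replicate number as a block, edgeR called 3478 genes higher and 3496 lower, or 3009 and 3000 with the GC trend removed too. The same 3 members passed. With the block, edgeR adjusted p was 0.0151 for Igf2bp3, 0.0158 for Igf2bp2, 0.0240 for Hmga1, 0.0394 for Igf2bp1 and 0.0465 for Lin28b. With the GC trend removed too, these were 0.0725, 0.113, 0.0115, 0.525 and 0.327. Upper-quartile scaling moved the median of all genes to -0.11. The 42 and 95 counts of L1td1 at d4 limit its fold.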
